A study of Mus musculus with 8 samples.

Results

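The 9 genes described here have products that act in the mitotic spindle, in its midzone or in the division of the cell. They were followed in C3H10T1/2 cells given sphingosine 1-phosphate (S1P), a blood lipid that acts on G protein-coupled receptors. The genes are Anln, Ect2, Racgap1, Cit, Prc1, Gas2l3, Nusap1, Tpx2 and Hmmr. The 9 genes were taken by symbol from the 18306 genes of the deposited table, each matched 1 row, and all 9 were among the 11844 genes that passed the filter on low counts. C3H10T1/2 is an established mouse embryo line of mesenchymal character, obtained from ATCC per the labels. Cells of both groups went 24 h without serum. The 4 vehicle libraries (numbered 1 to 4) then came from cells given fatty acid-free albumin for another 24 h, and the 4 S1P libraries (numbered 5 to 8) from cells given 5 µM S1P for the same 24 h. Both groups therefore share serum withdrawal, and the comparison asks how S1P alters the transcripts of cells held in that state. Nothing in the labels says that the libraries of a group were separate cultures, so p-values measure the spread between these libraries, which may be technical.

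When chromosomes have separated, the microtubules left between them are bundled into a central spindle, and this structure tells the cortex where to cut. Centralspindlin, a complex of a kinesin and the GTPase-activating protein Racgap1, recruits the exchange factor Ect2, which switches on the small GTPase RhoA, and RhoA drives assembly of an actin and myosin ring that Anln scaffolds. Earlier in mitosis, Tpx2, Hmmr and Nusap1 act in the nucleation and bundling of spindle microtubules. Transcripts of such genes are known to be scarce in resting cells and to peak in G2 and M phase.

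All 9 transcripts were higher after S1P, by 2.93-fold (Tpx2) to 3.39-fold (Hmmr). Each passed the test at an adjusted p under 0.05 (edgeR, Benjamini-Hochberg), where 5.6% of all tested genes were called higher and 2.82% were called higher by at least 2-fold. For each gene every S1P library lay above every vehicle library, which held for 11.9% of all tested genes. The log2 fold changes of the 9 genes ran from 1.55 to 1.76, with standard errors of 0.18 to 0.37. Among the 11844 genes ordered from the largest increase down, the 9 stood between places 74 and 147. A larger share of dividing cells and more of each transcript per cell cannot be told apart in RNA pooled from a whole culture.

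**Figure D1:**
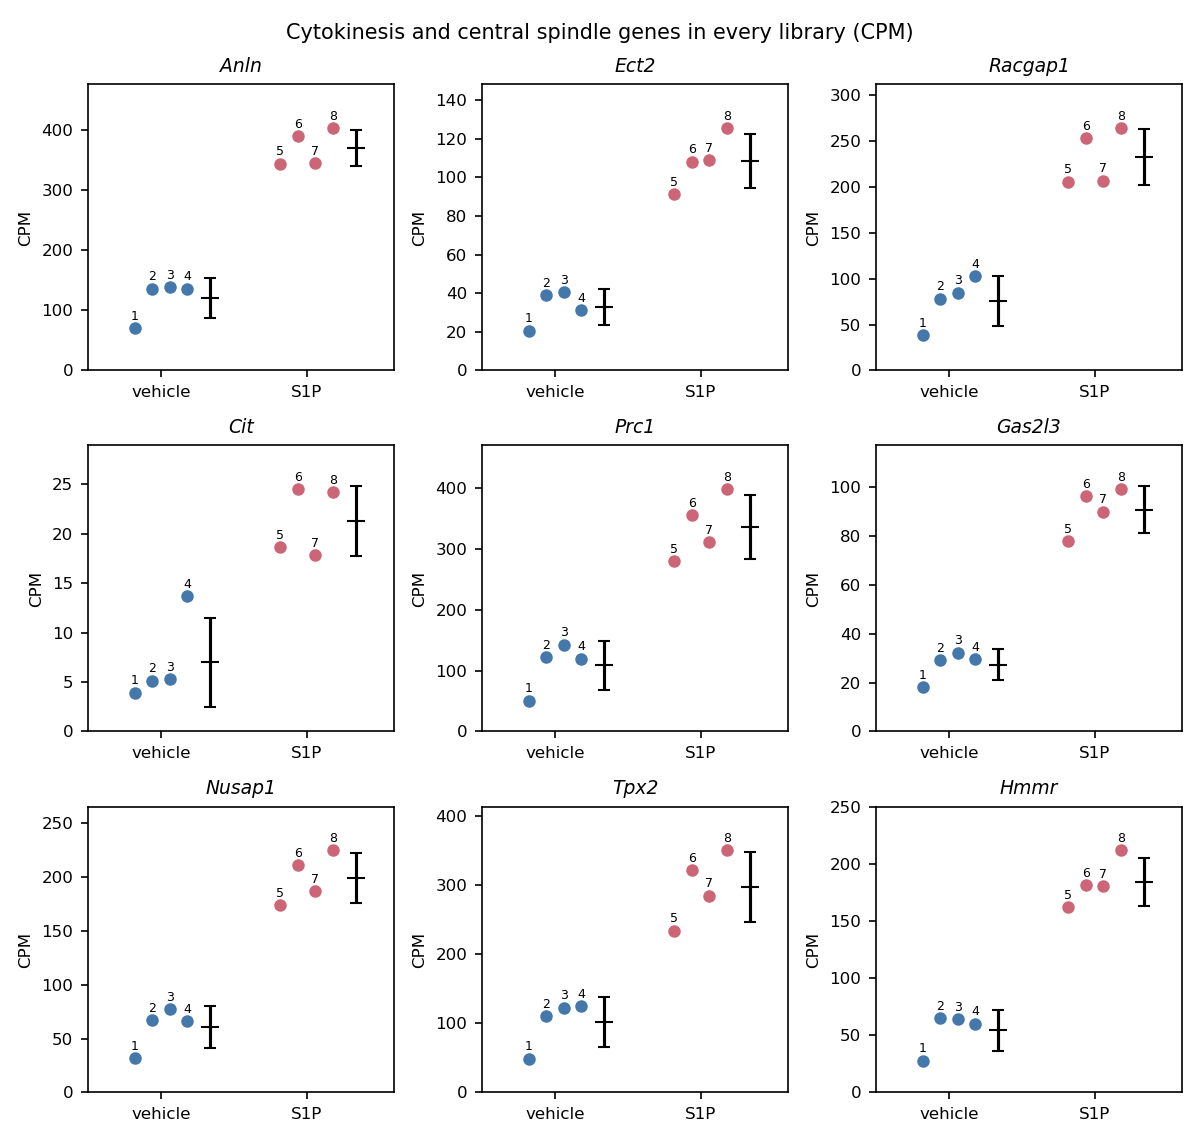
Levels of the 9 genes in CPM (read counts scaled to a common library size, linear axes from 0) in the 4 vehicle (blue) and 4 S1P (red) libraries, with the library number above each point and the mean ± SD at the right of each group. The S1P points lie above the vehicle points in all 9 panels, vehicle 1 is the lowest vehicle point in all 9, and vehicle 4 stands high for Cit.

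The libraries held nearly equal totals of 13750303 to 13761544 counts. Mitochondrial transcripts made up 2.5% of vehicle 4 and 3.45% to 3.83% of each other library. All 8 mesenchymal markers looked up (among them Col1a1, Col1a2, Pdgfrb and Vim) had counts in every library, with summed levels of 16008 to 23663 CPM in vehicle and 11995 to 17135 CPM after S1P. Of the endothelial markers, Pecam1, Cdh5 and Kdr had between 0 and 6 counts in a library while Tek averaged 54.6 CPM in vehicle and 31.3 CPM after S1P, and of the 4 blood markers found, Ptprc, Cd3e and Emr1 had 0 to 2 counts and Cd68 had 5 to 14 counts. Cdh1, the only one of 5 epithelial markers found under the symbols used, had 15 to 39 counts. Whether these levels take part in the changes below was not tested.

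The exchange factor and the GTPase-activating protein that set RhoA activity at the equator rose together. Ect2 (ENSMUSG00000027699, chromosome 3, 26995944 to 27053000 in mm9), the RhoA exchange factor of cytokinesis, measured 20.6, 38.9, 40.6 and 31.2 CPM in vehicle 1 to 4 and 91.4, 108, 109 and 126 CPM in S1P 5 to 8. The lowest S1P library was 2.25 times the highest vehicle library. The means were 32.8 ± 9.12 and 108 ± 13.9 CPM (± SD over 4 libraries each), a 3.31-fold rise (log2 fold change 1.72 ± 0.21 SE, edgeR adjusted p = 0.00305).

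Racgap1 (ENSMUSG00000023015, chromosome 15, 99450727 to 99482287), the GTPase-activating subunit of centralspindlin, measured 38.4, 78.4, 84.8 and 103 CPM in vehicle and 206, 253, 207 and 264 CPM after S1P. Vehicle 4 was its highest control and vehicle 1 its lowest, 2.67-fold apart, and the groups did not overlap. Its rise was 3.06-fold, from 76.0 ± 27.1 to 232 ± 30.5 CPM (log2 fold change 1.61 ± 0.26 SE, edgeR adjusted p = 0.00699).

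Of the 2 genes that act in the ring itself, Anln was abundant in both groups and Cit scarce, with Cit the more uneven among controls. Anln (ENSMUSG00000036777, chromosome 9, 22135458 to 22193850) encodes anillin, which ties actin, myosin, septins and RhoA together at the furrow. It measured 70.3, 136, 139 and 136 CPM in vehicle and 344, 389, 345 and 403 CPM after S1P. Vehicle 2 to 4 lay close together, vehicle 1 was at 0.513 of their mean, and the S1P libraries differed from each other by no more than 1.17-fold. Anln rose 3.08-fold, from 120.2 ± 33.3 to 370.5 ± 30.4 CPM (log2 fold change 1.62 ± 0.21 SE, edgeR adjusted p = 0.00335).

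Cit (ENSMUSG00000029516, chromosome 5, 116295087 to 116459156) encodes citron kinase, a RhoA-binding kinase that holds the midbody ring in place late in division. It measured 3.91, 5.12, 5.25 and 13.7 CPM in vehicle and 18.6, 24.5, 17.8 and 24.2 CPM after S1P, from 55 to 337 counts in a library. Vehicle 4 stood at 2.87 times the mean of the other vehicle libraries, and the lowest S1P library was 1.31 times vehicle 4. Vehicle 4 also has the low mitochondrial share, whose part in the Cit values was not tested. Cit rose 3.05-fold, from 6.98 ± 4.49 to 21.3 ± 3.55 CPM (log2 fold change 1.61 ± 0.37 SE, edgeR adjusted p = 0.0283). This call was lost when any of vehicle 1, vehicle 2, vehicle 3, S1P 6, S1P 7 or S1P 8 was left out (edgeR adjusted p of 0.0589 to 0.0899), and without vehicle 4 the log2 fold change was 2.16 (edgeR adjusted p = 0.00306). Without vehicle 4 and S1P 5 together it was 2.22.

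Genes of the microtubule bundle between the separating chromosomes rose as well. Prc1 (ENSMUSG00000038943, chromosome 7, 87439136 to 87461345) encodes the crosslinker of antiparallel microtubules on which the central spindle is built. It measured 50.4, 121, 142 and 119.6 CPM in vehicle and 279, 355, 310.4 and 398 CPM after S1P. Its vehicle libraries spanned 2.82-fold and its S1P libraries 1.42-fold, with no overlap. The rise was 3.09-fold, from 108 ± 40.0 to 336 ± 51.9 CPM (log2 fold change 1.63 ± 0.28 SE, edgeR adjusted p = 0.00901).

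Gas2l3 (ENSMUSG00000074802, chromosome 10, 88871368 to 88906912) encodes a protein that binds both actin and microtubules and is found at the midzone and midbody. It measured 18.1, 29.2, 32.3 and 29.6 CPM in vehicle and 77.7, 96.2, 89.9 and 99.1 CPM after S1P. Gas2l3 had the smallest relative spread among the vehicle libraries of the 9 genes, with a coefficient of variation of 23.0%, and stood at place 13 of 11844 when genes were ordered by p. It rose 3.32-fold, from 27.3 ± 6.27 to 90.7 ± 9.50 CPM (log2 fold change 1.73 ± 0.18 SE, edgeR adjusted p = 0.00247).

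The 3 spindle assembly factors also rose. Tpx2 (ENSMUSG00000027469, chromosome 2, 152673500 to 152721257), which activates Aurora A and promotes microtubule nucleation near chromosomes, measured 48.6, 109.9, 123 and 125 CPM in vehicle and 233, 321, 284 and 350.0 CPM after S1P. The groups did not overlap. Among the 9 genes it had the widest spread over the S1P libraries (a coefficient of variation of 16.9%) and the smallest rise, 2.93-fold, from 101 ± 35.8 to 297 ± 50.4 CPM (log2 fold change 1.55 ± 0.28 SE, edgeR adjusted p = 0.01).

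Hmmr (ENSMUSG00000020330, chromosome 11, 40514690 to 40547139), a spindle protein that is also known as a hyaluronan receptor, measured 27.9, 64.9, 64.1 and 60.2 CPM in vehicle and 162, 181, 181 and 212 CPM after S1P. Its fold, 3.39, was the highest of the 9, from 54.3 ± 17.7 to 184 ± 20.8 CPM (log2 fold change 1.76 ± 0.25 SE, edgeR adjusted p = 0.00404). The lowest S1P library was 2.49 times the highest vehicle library, the widest such gap among the 9 genes.

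Nusap1 (ENSMUSG00000027306, chromosome 2, 119443834 to 119477180), a microtubule-bundling protein of the spindle around chromosomes, measured 32.0, 66.9, 77.1 and 66.3 CPM in vehicle and 174, 211, 187 and 225 CPM after S1P. It rose 3.29-fold, from 60.5 ± 19.7 to 199 ± 23.1 CPM (log2 fold change 1.72 ± 0.24 SE, edgeR adjusted p = 0.00413). Its span shares 572 bases with Oip5, a tested gene with a mean of 131 counts. In the same way Hmmr shares 171 bases with Nudcd2 (mean of 844 counts) and Prc1 shares 64 bases with Rccd1 (57.5 counts). Prc1 also shares 2289 bases with 6330403N20Rik, and Cit 32 bases with Gm14508, genes that were not tested and had means of 0.25 and 0.125 counts. How reads in shared bases were assigned is not given in the sources used here, which leaves Nusap1, Hmmr, Prc1 and Cit uncertain by an amount that was not measured.

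Per kilobase of exon, a scale on which levels of different genes can be compared, Tpx2 was the most abundant of the 9 in both groups, at a mean of 21.7 CPM per kilobase in vehicle and 63.5 after S1P. Nusap1 followed at 14.9 and 49.1, then Anln at 13.3 and 40.9 and Prc1 at 13.2 and 40.8. Racgap1 (10.7 and 32.8) and Hmmr (10.0 and 33.9) came next. In vehicle, each of these 6 differed from the gene next to it in this order by less than the larger of their SDs over libraries. After S1P this held for Anln with Prc1 and for Racgap1 with Hmmr, and the other neighbours differed by more. Ect2 (6.09 and 20.1) and Gas2l3 (3.88 and 12.9) were lower, and Cit was lowest at 0.425 and 1.30. Exon lengths came from a GRCm38 annotation and hold all annotated exons, 16.4 kilobases for Cit and 4.06 for Nusap1, so a gene with many unused exons reads low on this scale.

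The 9 genes also shared the spread among controls. Vehicle 1 was the lowest control for 9 of 9 genes, at 0.395 (Prc1) to 0.597 (Gas2l3) of the mean of vehicle 2 to 4. Summed over the 9 genes, the level was 310.2 CPM in vehicle 1, 651, 708 and 684 CPM in vehicle 2, 3 and 4, and 1586, 1941, 1731 and 2101 CPM in S1P 5 to 8. S1P 5 was the lowest S1P library for 8 of the 9 genes and S1P 8 the highest for 8 of the 9, with Cit the exception in both cases. How many of all tested genes follow the same order was not counted. In the summed levels of the central spindle, spindle assembly and S phase lists below, vehicle 1 was also the lowest control. It was not the lowest for the ring, abscission and regulator lists. Vehicle 1 held 3.69% mitochondrial counts and 15384 genes with a count, the most of the 8 libraries, and the part of these in its low values was not tested. Against vehicle 2 to 4 alone, the S1P means were 2.5 (Tpx2) to 2.99 (Gas2l3) times as high, and the fits without vehicle 1 gave the lowest log2 fold change of the fits that left out 1 library for every one of the 9 genes, from 1.30 for Tpx2 to 1.56 for Gas2l3. The other 8 genes remained called in all 8 fits that left out a library (edgeR adjusted p of up to 0.038, for Tpx2 without S1P 6), and Cit remained called in 2 of them.

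**Figure D2:**
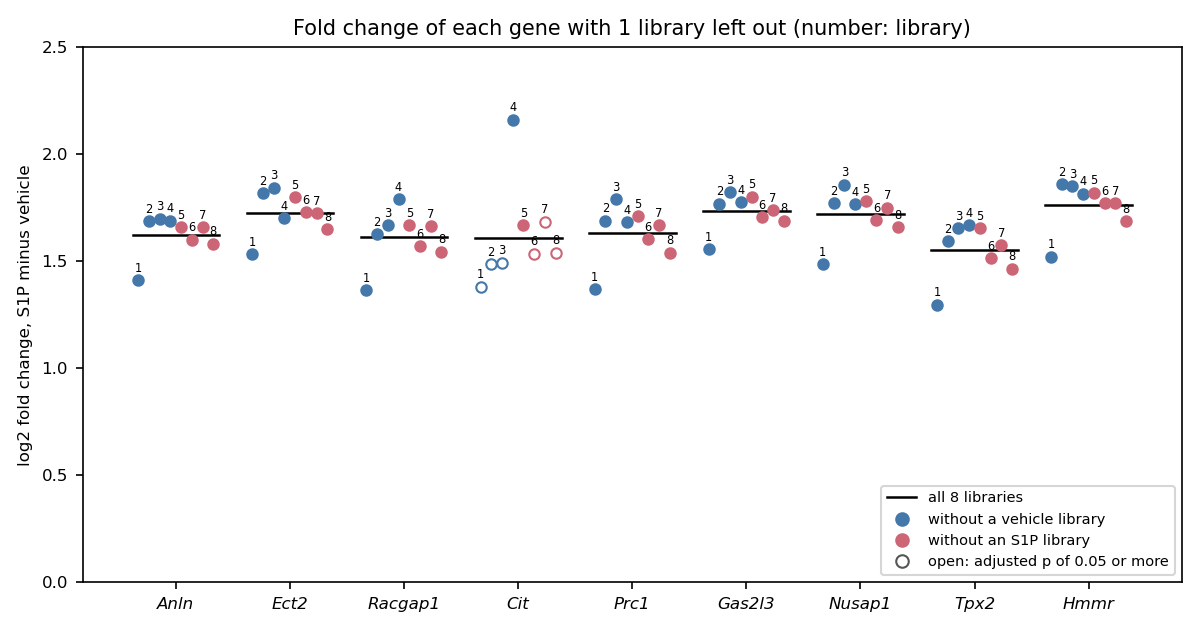
Log2 fold change (S1P minus vehicle, axis from 0) of each gene with all 8 libraries (black line) and with each library left out in turn (points, numbered by the library left out, blue for vehicle and red for S1P). Open points have an adjusted p of 0.05 or more, which occurs for Cit alone, in 6 of its 8 fits.

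Promoter sequences are shown because the 9 genes moved together and because promoters of late cell cycle genes are known to carry a short element, the cell cycle homology region, often near a CCAAT box. The RefSeq promoter table (GRCm38.p6, from 250 bases before to 50 after a start, 1 window per gene) held 8 of the 9 genes, all but Tpx2. On either strand, TTTGAA was found in 5 of the 8 windows (Anln, Ect2, Hmmr, Prc1 and Racgap1) against 18.1% of 27025 promoters and 11.5% of those of 8393 tested genes, and TTCGAA in 1 (Gas2l3) against 1.57% and 2.13%. CCAAT was found in 5 of 8 (Ect2, Gas2l3, Hmmr, Prc1 and Racgap1) against 37.9% and 39.5%. The 5 genes with CCAAT all held 1 of the other 2 motifs as well, a pairing found in 7.7% of all promoters and 5.83% of those of tested genes. None of the 3 motifs was in the windows of Cit and Nusap1. The matches are letters only, and binding was not measured.

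The 6 windows with a match are printed 5′ to 3′ from 120 bases before to 30 bases after the start, with GRCm38.p6 coordinates, which differ from the mm9 coordinates above. Capitals mark TTTGAA, which reads TTCAAA on the reverse strand. They also mark TTCGAA, which reads the same on both strands. The CCAAT box, in capitals too, reads ATTGG on the reverse strand, and no match overlapped another.
Racgap1, chr15:99651627-99651776, minus strand: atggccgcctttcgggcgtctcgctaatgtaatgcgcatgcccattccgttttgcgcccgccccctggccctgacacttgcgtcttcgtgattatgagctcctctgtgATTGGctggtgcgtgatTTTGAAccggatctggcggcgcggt
Prc1, chr7:80294331-80294480, plus strand: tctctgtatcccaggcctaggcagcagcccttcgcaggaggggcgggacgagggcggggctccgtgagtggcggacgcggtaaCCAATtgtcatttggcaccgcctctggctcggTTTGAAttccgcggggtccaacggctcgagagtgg
Hmmr, chr11:40733408-40733557, minus strand: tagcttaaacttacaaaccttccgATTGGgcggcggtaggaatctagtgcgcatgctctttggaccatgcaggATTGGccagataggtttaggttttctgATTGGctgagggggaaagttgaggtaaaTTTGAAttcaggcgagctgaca
Gas2l3, chr10:89443938-89444087, minus strand: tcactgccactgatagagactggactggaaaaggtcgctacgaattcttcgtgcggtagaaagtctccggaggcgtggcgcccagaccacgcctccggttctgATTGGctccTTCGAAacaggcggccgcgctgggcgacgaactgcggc
Ect2, chr3:27153849-27153998, minus strand: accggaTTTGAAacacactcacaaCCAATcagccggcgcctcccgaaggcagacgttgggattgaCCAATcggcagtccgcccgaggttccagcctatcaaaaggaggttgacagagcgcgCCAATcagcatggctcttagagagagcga
Anln, chr9:22389177-22389326, minus strand: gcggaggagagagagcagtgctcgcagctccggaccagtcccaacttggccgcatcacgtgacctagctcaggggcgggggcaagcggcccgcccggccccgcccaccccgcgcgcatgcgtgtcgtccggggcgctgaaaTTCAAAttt
In Racgap1, Hmmr and Gas2l3 a CCAAT box on the reverse strand lay before the other motif. Counting the start as 1 and the base before it as -1, ATTGG began at -12 and TTTGAA at 6 in Racgap1, ATTGG at -20 and TTTGAA at 9 in Hmmr, and ATTGG at -17 and TTCGAA at -8 in Gas2l3. Hmmr held further ATTGG at -47 and -96, and at -129 and -172 before the printed bases. In Prc1, CCAAT began at -37 on the forward strand and TTTGAA at -5. Ect2 held CCAAT at -96, -55 and 2, with TTTGAA at -114 and again at 40, past the printed bases. Anln held TTCAAA at 22 and TTTGAA at 29, the latter only partly within the printed bases.

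Partner genes of the central spindle rose with the 9. Of 16 listed, 14 were tested, 10 rose, none fell and 4 were not called. Of all tested genes, 5.6% were called higher and 2.9% lower. The median log2 fold change of the list was 1.56, against -0.04 over all tested genes. Kif20a, a kinesin that carries Plk1 to the midzone, rose 3.71-fold from 68.4 ± 17.5 to 254 ± 26.9 CPM (edgeR adjusted p = 0.00247). Kif23, the kinesin subunit of centralspindlin, rose 3.63-fold from 43.8 ± 10.5 to 159 ± 13.9 CPM (edgeR adjusted p = 0.00247). Shcbp1, a partner of centralspindlin, rose 3.33-fold and the kinesin Kif20b 3.29-fold. The 4 that were not called, named after their values were seen, were Plk1 (log2 fold change 1.25), Incenp (0.91), Clasp2 (0.30) and Clasp1 (0.04), with edgeR adjusted p of 0.102, 0.102, 0.196 and 0.812. Plk1, the mitotic kinase, measured 6.54, 14.2, 16.2 and 37.0 CPM in vehicle and 39.5, 47.4, 39.9 and 48.8 CPM after S1P, so that vehicle 4 stood high for it as for Cit.

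Spindle assembly partners showed a wider range. Of 31 tested, 19 rose, none fell and 12 were not called, where 5.6% of all tested genes were called higher and 2.9% lower. The median log2 fold change was 1.10. Kif18a, a kinesin that damps chromosome movement, rose 3.76-fold, the spindle protein Ckap2 3.72-fold, the depolymerising kinesin Kif2c 3.57-fold and Kif15, a motor of the spindle, 3.48-fold. The lowest member, named after its value was seen, was Numa1, a spindle pole organiser, at a log2 fold change of -0.16 (edgeR adjusted p = 0.704). Numa1 measured 162, 132, 113 and 273 CPM in vehicle and 155, 165, 141 and 146 CPM after S1P, so that vehicle 4 stood high for it too. Without vehicle 4, 27 genes of this list were called higher.

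Of 28 tested ring and septin genes, which include actomyosin genes that also serve cells that are not dividing, 2 rose, none fell and 26 were not called. That share is near the 5.6% of all tested genes called higher and is no result about the list. The median log2 fold change was 0.18. The formin Diap3 rose 2.63-fold from 72.2 ± 26.2 to 190.0 ± 14.0 CPM (edgeR adjusted p = 0.011) and the septin Sept10 1.46-fold (edgeR adjusted p = 0.0338). Rhoa, the target of Ect2, averaged 487 and 523 CPM (log2 fold change 0.10, edgeR adjusted p = 0.637, named after its value was seen). The ring count was 1 when any one of vehicle 2, vehicle 3 or S1P 5 to 8 was left out, and 7 without vehicle 4.

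Of 22 tested midbody and abscission genes, 1 rose, none fell and 21 were not called, again a share near the 5.6% called higher over all tested genes. The median log2 fold change was -0.06. By the naming rule the 2 most abundant stand for the list, Pdcd6ip, the ESCRT adaptor Alix, at 251 ± 16.2 and 274 ± 15.9 CPM and Chmp3, an ESCRT-III subunit, at 195 ± 24.8 and 197 ± 18.2 CPM (edgeR adjusted p of 0.449 and 0.955). The riser was Cep55, the midbody protein that recruits ESCRT factors, named after its value was seen, at 21.2 CPM in vehicle and 80.9 CPM after S1P (log2 fold change 1.94, edgeR adjusted p = 0.00597).

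Genes of S phase were higher by less than the 9 in fold, though no test of that difference was made. Of 16 tested, 8 rose, none fell and 8 were not called, where 5.6% of all tested genes were called higher and 2.9% lower. The median log2 fold change was 0.73 and the highest value 1.25. Rrm1 and Rrm2, the subunits of ribonucleotide reductase, rose 2.38-fold and 2.29-fold, and the replication factors Cdc45 and Mcm10 2.32-fold and 2.22-fold. The count was 3 without S1P 6 or without S1P 8, and 16 without vehicle 4. Summed over the list, vehicle 1 was at 0.611 of the mean of vehicle 2 to 4, against 0.456 for the 9 genes, 0.601 for the central spindle partners, 0.741 for the spindle assembly partners, 0.936 for the ring list and 1.07 for the abscission list. Such sums weigh abundant genes most. The central spindle list includes Clasp1 (means of 112 CPM in vehicle and 115 CPM after S1P) and Clasp2 (86.3 and 107 CPM), neither of them called. The part of such genes in the differences between lists was not tested.

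**Figure D3:**
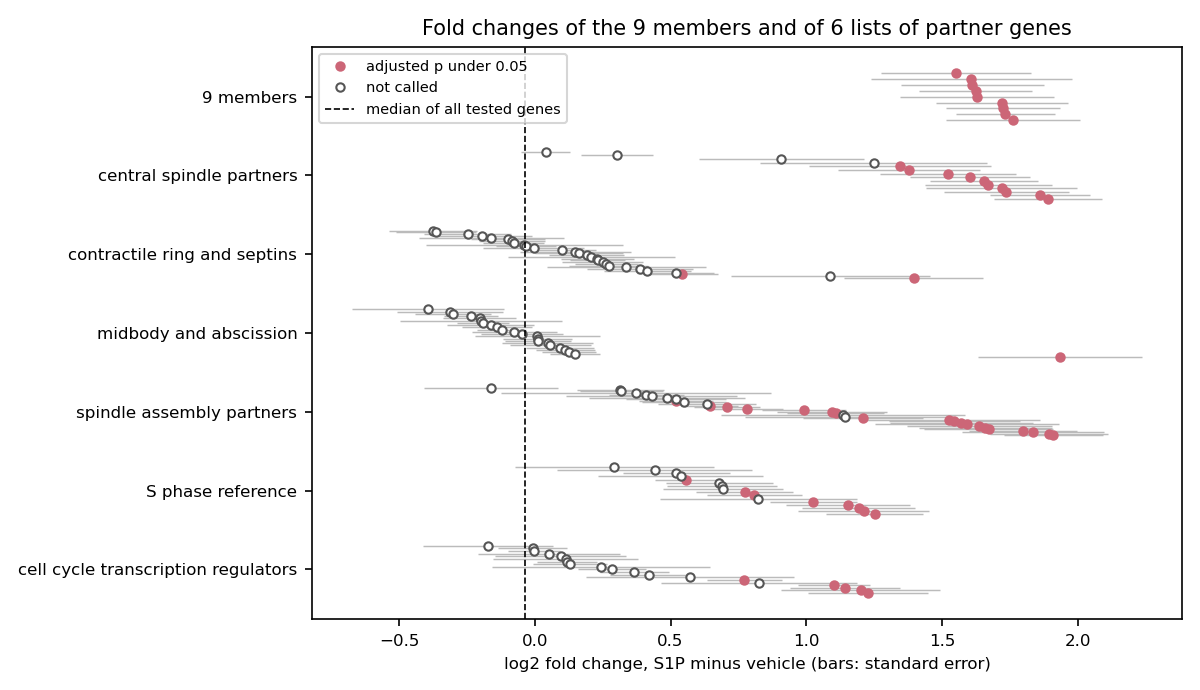
Log2 fold change (S1P minus vehicle) of each tested gene with its standard error, for the 9 genes and 6 lists of related genes, filled red where the adjusted p was under 0.05 and open where it was not. The 9 genes lie between 1.55 and 1.76. The ring list has a median of 0.18 and the abscission list one of -0.06, against -0.04 over all tested genes (dashed line). Diap3 is the rightmost point of the ring list and Cep55 of the abscission list.

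**Figure D4:**
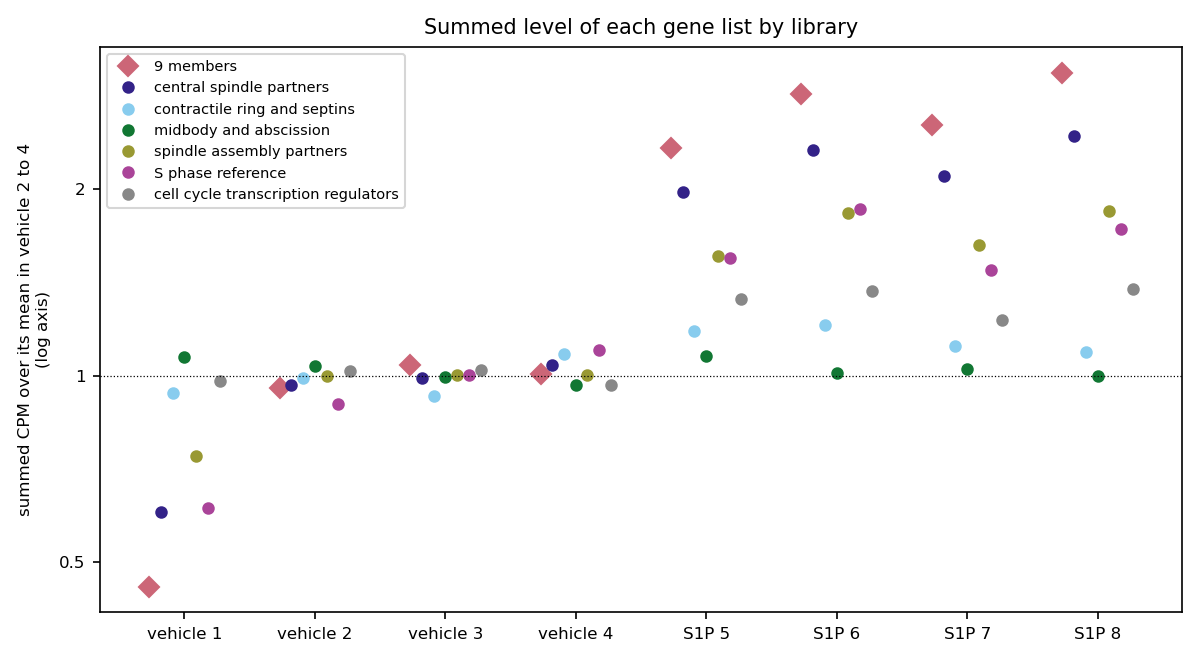
Summed CPM of the 9 genes (diamonds) and of each list (circles) in each library, divided by its own mean in vehicle 2 to 4, on a log axis. The diamonds fall to 0.456 in vehicle 1 and lie above every other list in S1P 5 to 8, while the abscission list stays near 1. Such sums weigh abundant genes most, which in the central spindle list include Clasp1 and Clasp2, neither of them called. The part of such genes in the differences between lists was not tested.

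Ratios between binding partners, taken per kilobase of exon within each library, overlapped between the groups in all 4 pairs looked at. The ratio of Ect2 to Racgap1 was 0.705, 0.652, 0.630 and 0.399 in vehicle and 0.584, 0.562, 0.693 and 0.625 after S1P. Vehicle 4 was the low value. Racgap1 to Kif23, the subunits of centralspindlin, averaged 1.89 ± 0.33 in vehicle and 1.62 ± 0.08 after S1P. Prc1 to its motor partner Kif4 averaged 1.90 ± 0.18 and 1.88 ± 0.06, and Tpx2 to Aurka, the kinase it activates, 2.75 ± 0.49 and 2.51 ± 0.19. For 2 pairs the overlap came from 1 vehicle library. Racgap1 to Kif23 was 1.51 in vehicle 1 and 1.85 to 2.33 in vehicle 2 to 4, against 1.54 to 1.73 after S1P. Tpx2 to Aurka was 2.04 in vehicle 4 and 2.79 to 3.14 in vehicle 1 to 3, against 2.25 to 2.69 after S1P. These pairs were chosen after the values of the genes had been seen, and no test was made.

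The genes whose pattern over the 8 libraries lay nearest to the mean of the 9, among 9975 genes with a mean of at least 5 CPM, were Kif4, Tacc3, Ckap2l, Birc5, Spag5 and Kif14. The measure was the root mean square difference of log2 CPM after each gene was centred on its own mean, and it was 0.0462 for Kif4 and 0.106 for Kif14. The 9 genes themselves lay at 0.0737 (Anln) to 0.160 (Ect2) from their own mean, except Cit at 0.375. Each of the 9 counts toward that mean, which the outside genes do not. Among the 9975 genes ordered by nearness to it, Anln stood at place 3, Ect2 at 47 and Cit at 189. Taken singly, Nusap1 was nearest to Kif4 (0.0446), Racgap1 to Birc5, Anln to Arhgap11a, Ect2 to Kif15, Gas2l3 to Ttk, Prc1 to Ccna2, Hmmr to Nusap1, Tpx2 to F630043A04Rik and Cit to Fam64a (0.165).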

How the data were processed

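The data are RNA sequencing libraries of 4 vehicle and 4 S1P samples. The submitters' processing notes list STAR 2.5.3a and the mm9 build. The table deposited by the authors holds raw counts for each gene, whole numbers in all 8 columns, and its name calls them sense counts. The counting tool, and how the totals came to be nearly equal, were not given in the sources used here. Every column was matched by title.

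Genes were filtered with filterByExpr (minimum count of 10) and tested across all 11844 remaining genes with edgeR 4.0.16 in R 4.3.3 (TMM factors, robust quasi-likelihood fit, treatment as the only term, Benjamini-Hochberg adjustment, threshold 0.05). The CPM values use TMM factors, except those of cell type markers, which use library totals. SEs were derived from the F statistic. The fit was tested on simulated data, with 50 changed genes of each size. It recovered 6% of 1.5-fold, 48% of 2-fold, 90% of 4-fold and 94% of 8-fold changes, and 3.25% of its calls were false. A gene that was not called may therefore still have changed. At these totals 3 counts equal 0.213 to 0.223 CPM, the upper limit for a gene with no counts if only counting error is considered. Alternatives were other scalings and filters, DESeq2 1.42.0, limma-voom (limma 3.58.1), a surrogate variable (sva 3.50.0) and leaving out libraries.

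The 9 genes, the lists and the tests were chosen with earlier results of these data known. From each list the text names up to 4 called genes with the largest change and a mean of at least 2 CPM, or the 2 most abundant where fewer than 2 were called, and others are marked as named after their values were seen. The printed promoter window was also chosen after the matches were seen.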

Additional observations from a re-analysis of the deposited data

Results flagged for a closer look

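In 3 of the 18 sets of 4 values (9 genes in 2 groups) 1 library stood apart by Dixon's 95% criterion (the gap to the nearest value over the whole range). Chance alone passes it in about 1 set in 20. The 18 sets are not independent, because the 9 genes were measured in the same 8 libraries and vary together, so the 2 shares cannot be compared as a test. Anln measured 70.3 CPM in vehicle 1, against 136 to 139 CPM in vehicle 2 to 4. Hmmr measured 27.9 CPM in vehicle 1, against 60.2 to 64.9 CPM. Cit measured 13.7 CPM in vehicle 4, against 3.91 to 5.25 CPM in vehicle 1 to 3. Vehicle 4 is also the library with the low mitochondrial share, and whether that bears on Cit was not tested. For the other 8 genes vehicle 4 was at 0.784 (Ect2) to 1.26 (Racgap1) of the mean of vehicle 2 and 3.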

How the results depend on the processing

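All 9 genes kept a positive log2 fold change under the 16 alternatives, and 8 of them kept their call under each. Cit was not called in 6 fits that left out 1 library. Over all 8 fits that left out 1 library, from 333 to 1133 genes were called higher and from 101 to 723 lower. The ring and septin genes called higher ranged from 1 to 7 and the S phase genes called higher from 3 to 16. The highest value of each of these counts came from the fit without vehicle 4. DESeq2 called 804 genes lower, so that 54.6% of its calls were higher against 65.8% in edgeR (76.7% without S1P 6, 76.9% without S1P 8 and 55.8% without both vehicle 4 and S1P 5), and it called 4 ring genes higher. With a surrogate variable 1459 genes were higher and 1006 lower, with 7 ring genes higher and 2 lower, 16 S phase genes higher and 9 regulators higher. Without both vehicle 4 and S1P 5 there were 1178 higher and 934 lower, with 5 ring and 15 S phase genes higher. The cause was not tested. No paired analysis was possible because the groups share no replicate numbers. Scarce genes such as Cit rest on as few as 55 counts.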

Other observations

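Among the listed transcription regulators of the cell cycle, 5 of 19 tested rose, none fell and 14 were not called. Of all tested genes, 5.6% were called higher and 2.9% lower. The median log2 fold change of the regulators was 0.28. E2f7, an atypical E2F repressor, rose 2.34-fold from 13.6 ± 3.89 to 31.8 ± 4.07 CPM (edgeR adjusted p = 0.0103). Foxm1, an activator of G2 and M phase genes, rose 2.30-fold from 32.5 ± 15.2 to 74.6 ± 10.9 CPM (edgeR adjusted p = 0.0361). Lin9, a subunit of the MuvB core, rose 2.21-fold and the pocket protein gene Rbl1 2.15-fold. The remaining riser, named after its value was seen, was Lin54, the DNA-binding subunit of MuvB that reads the cell cycle homology region, at 28.9 CPM in vehicle and 49.3 CPM after S1P (log2 fold change 0.77, edgeR adjusted p = 0.01). Nfya, Nfyb and Nfyc, the subunits of the factor that binds CCAAT, also named after their values were seen, had log2 fold changes of -0.003, 0.28 and 0.13 (edgeR adjusted p of 0.988, 0.196 and 0.576).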
